A study of Mus musculus with 15 samples.

Results

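Semaphorins, plexins, ephrins and Eph receptors were followed across 15 RNA sequencing libraries of primary astrocytes from mouse brain. Members were taken by symbol (Sema followed by a digit, Plxna, Plxnb, Plxnc, Plxnd, Efna, Efnb, Epha and Ephb), which gave 52 of the 25748 symbols counted. They were 20 semaphorins, 9 plexins with the antisense transcript Plxna4os1, 8 ephrins and 14 Eph receptors. The libraries fell into 3 groups of 5. Control cultures were untreated. LPS cultures, labelled SCI by the submitters after spinal cord injury, were exposed in the dish to lipopolysaccharide, a bacterial cell wall component, at 1 µg/mL for 6 to 8 h. Rg1 plus LPS cultures were given the ginseng saponin ginsenoside Rg1 at 80 µM for 12 h and then LPS at the same dose and time. A group with Rg1 and no LPS was not analysed here. Whether replicates were independent cultures, or came from different animals, is not stated in the labels. P-values therefore measure the spread between these samples, which may be technical.

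Both systems are guidance cues with their receptors. Semaphorins are ligands: those of class 3 are secreted and mostly act through neuropilin co-receptors, those of classes 4 to 6 span the membrane, and Sema7a is held by a lipid anchor. Plexins are their receptors, and their inner domain acts on small GTPases and so on the cytoskeleton. Ephrins of the A type are lipid-anchored and those of the B type span the membrane, and both bind Eph receptor tyrosine kinases on a neighbouring cell, with signals in both directions. In the injured central nervous system these families are known for repelling axons and for the border between astrocytes and fibroblasts.

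Total counts per library ran from 34199966 to 41764010. Mitochondrially encoded genes took 2.49 to 2.80% of counts in control, 1.58 to 2.37% with LPS, and 2.77 to 4.98% with Rg1 and LPS. The 10 astrocyte markers were all detected, with a summed normalised count of 8997 to 11480 CPM (the count scaled by library size) in control. The sum was 5830 to 10100 CPM in LPS libraries and 6347 to 9943 CPM after Rg1 and LPS. LPS replicate 3 was the highest of its group in them. In the tests described below, 6 of the 10 were lower in LPS than in control, beside 9.82% of all genes. In Rg1 plus LPS, 5 were lower than in control, beside 18.1% of all genes. Against LPS, 4 were higher and 1 lower, beside 22.2% and 23.2%. Fibroblast and mural markers summed to 6007 to 7238, 6137 to 9372 and 2986 to 8195 CPM, and were lowest in Rg1 plus LPS replicates 1 (2986) and 4 (4096). Microglia and macrophage markers summed to 57.7 to 143, 65.6 to 139 and 47.9 to 74.1 CPM, and were highest in control replicate 4 and LPS replicate 3. Neuron markers summed to 669 to 789, 534 to 688 and 484 to 699 CPM, and oligodendrocyte lineage markers to 437 to 534, 398 to 493 and 393 to 530.5 CPM. In LPS against control, 3 of 8 neuron markers tested and 1 of 7 oligodendrocyte lineage markers were lower, beside 9.82% of all genes. Within their groups, control replicate 4 and LPS replicate 3 were also highest in astrocyte and oligodendrocyte lineage markers. Rg1 plus LPS replicates 1 and 4 were also lowest of theirs in astrocyte, microglia and macrophage, neuron and oligodendrocyte lineage markers. The part of these cell types in the results below was not tested beyond the fits without the libraries named. In bulk libraries, fewer cells of a type and less RNA per cell cannot be told apart.

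The promoters of 4 receptor genes are shown because these genes had the most firmly called pair of opposite differences, LPS against control and then Rg1 plus LPS against LPS, among members with a promoter entry. Both comparisons use the same LPS libraries. Each line is the RefSeq reference sequence (GRCm38.p6) of 250 bases before the listed transcript start, in lower case with CG dinucleotides in capitals. That start need not be the outermost start of the gene. The whole Plxnd1 window and parts of the Plxna2 and Ephb3 windows lie inside the gene coordinates given below, while the Ephb4 window lies outside them. Plxnd1 and Plxna2 encode plexins, and Ephb4 and Ephb3 encode Eph receptors that bind B-type ephrins.
Plxnd1 (chr6:115995006-115995255, minus strand): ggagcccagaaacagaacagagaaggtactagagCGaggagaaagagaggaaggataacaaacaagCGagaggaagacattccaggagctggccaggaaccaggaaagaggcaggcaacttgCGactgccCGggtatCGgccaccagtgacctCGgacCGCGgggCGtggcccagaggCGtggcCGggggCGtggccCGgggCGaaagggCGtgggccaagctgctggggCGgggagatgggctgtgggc
Plxna2 (chr1:194619579-194619828, plus strand): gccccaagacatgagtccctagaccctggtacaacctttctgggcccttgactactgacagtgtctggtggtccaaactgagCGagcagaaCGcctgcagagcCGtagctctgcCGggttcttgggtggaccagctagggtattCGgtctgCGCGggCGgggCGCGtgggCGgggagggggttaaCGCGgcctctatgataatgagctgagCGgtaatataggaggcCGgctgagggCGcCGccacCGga
Ephb4 (chr5:137349859-137350108, plus strand): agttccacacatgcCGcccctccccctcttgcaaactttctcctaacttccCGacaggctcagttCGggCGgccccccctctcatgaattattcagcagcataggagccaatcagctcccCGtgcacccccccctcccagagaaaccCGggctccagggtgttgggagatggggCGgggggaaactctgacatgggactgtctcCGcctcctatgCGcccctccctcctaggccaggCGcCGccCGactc
Ephb3 (chr16:21204545-21204794, plus strand): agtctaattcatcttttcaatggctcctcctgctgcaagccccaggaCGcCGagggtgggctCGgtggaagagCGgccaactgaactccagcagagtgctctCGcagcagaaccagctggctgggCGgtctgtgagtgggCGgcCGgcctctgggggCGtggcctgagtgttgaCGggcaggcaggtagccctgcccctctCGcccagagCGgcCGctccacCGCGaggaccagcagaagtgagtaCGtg

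The 4 windows held 16, 18, 12 and 16 CG dinucleotides in the order shown, and 62.8 to 65.6% G plus C. Over the 59 windows of the 45 members that matched the RefSeq table, the median was 16 CG and 64.0% G plus C, beside 6 CG and 52.4% over all 32851 windows. In the 300-base windows that reach 50 bases past the start, both strands were searched for 4 motifs. The NF-kB type motif GGANTTTCC was in 0 of the 59 member windows and in 1.25% of all windows. The looser GGANNTTCC, which includes it, was in 1 member window, that of Efna4, and in 4.26% of all windows. The AP-1 type motif TGACTCA was in 2 member windows, those of Sema4c and Sema6b, beside 5.2% of all windows, and the CRE type motif TGACGTCA was in 1, that of Epha2, beside 1.79%. None of the 4 windows printed above held any of these motifs. An absent match says only that these letters are not in this window.

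Levels between genes were compared per length, as deposited FPKM, in the control libraries. Plxnb2, a plexin that binds class 4 semaphorins, led at 85.2 ± 3.75 FPKM (SD, n = 5), followed by the secreted Sema3c at 79.3 ± 16.6 and Sema7a at 36.6 ± 12.3. The libraries of each overlapped those of the next. Epha1 at 19.9 ± 3.17, Epha2 at 18.5 ± 3.80 and Sema3b at 18.1 ± 1.48 FPKM followed and overlapped in turn. Among ephrins the highest were Efnb1 at 13.7 ± 0.445 and Efna4 at 12.1 ± 1.56 FPKM, and among EphB receptors Ephb4 at 8.71 ± 0.216. Ephb4 overlapped neither neighbour in this order, Efnb2 above at 9.72 ± 0.443 and Efna5 below at 7.61 ± 0.489. In control, 36 of the 52 members averaged at least 1 FPKM and 13 at least 10, beside 35 and 15 in LPS and 35 and 10 in Rg1 plus LPS.

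**Figure D1:**
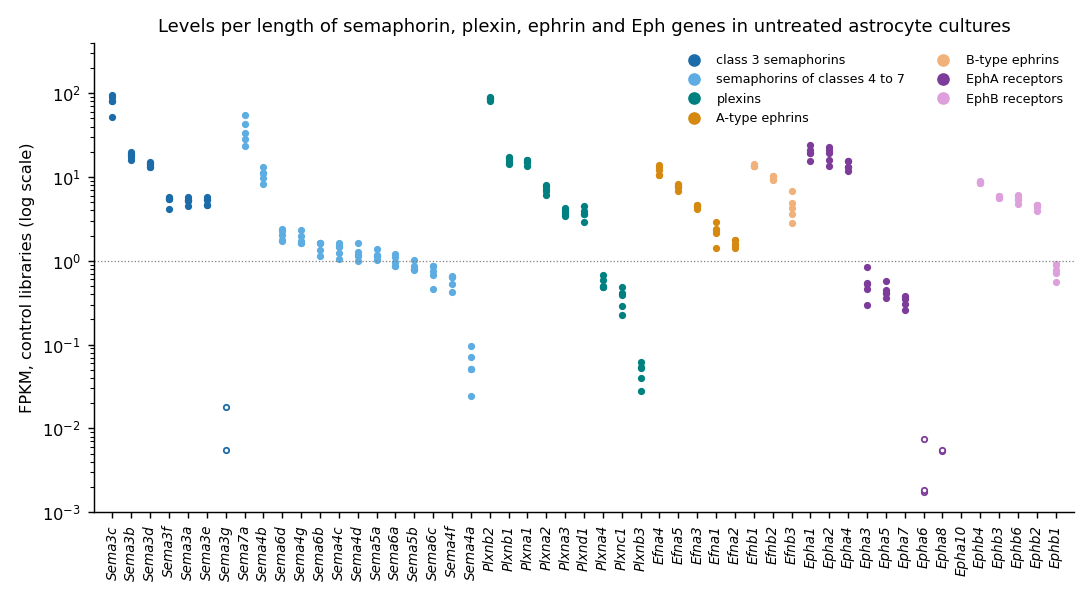
FPKM of each member in the 5 control libraries on a log axis, 1 point per library, coloured by family and ordered by mean within it. Open points mark genes at 0 in some library, libraries at 0 are not drawn, and Plxna4os1 is left out. Plxnb2 and Sema3c lie near 80 FPKM, Sema3g, Epha6 and Epha8 lie at the bottom, and Epha10, at 0 in all 5, has no point.

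Too few counts for a test were found for 5 members. Summed over the 5 libraries of each group, Sema3g had 4, 10 and 20 counts in control, LPS and Rg1 plus LPS. Epha6 had 6, 19 and 10 counts, Epha8 had 2, 0 and 2, Epha10 had 0, 2 and 0, and Plxna4os1 had 1, 0 and 0. Plxna4os1 lies inside Plxna4 on chromosome 6, and whether counting used strand is not given in the sources used here. The other 47 members were tested with 15362 genes in edgeR's quasi-likelihood fit of all 15 libraries. A member is called changed at an adjusted p under 0.05.

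LPS was compared with control to ask what the endotoxin alone did to these genes. The plexins Plxnd1, Plxna2 and Plxna1, Ephb4 and Ephb2, Efna2 and Efnb1, and Sema4d rose. Ephb3, Sema7a, Sema6d, Sema6b, Sema3b and Plxna4 fell. Thus 14 of 47 members changed, 8 up and 6 down, which is 29.8% beside 23.7% of all genes tested (13.8% higher and 9.82% lower). The members' median log2 fold change was -0.08, beside -0.003 over all genes. Of 6 EphA receptors 0 passed in edgeR, with 1 at an unadjusted p under 0.05, 1 called by DESeq2 and 0 by limma voom. Without LPS replicate 2 the count was 9 of 47 members, 5 up and 4 down, all of them among the 14. In that fit 3210 of 15484 genes changed, so the members' share was not above that of all genes. The 5 calls lost without LPS replicate 2, those of Efnb1, Ephb2, Sema4d, Sema6d and Plxna4, were each also lost when any of several other single libraries was left out.

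Rg1 plus LPS was compared with LPS to ask what the saponin changed in exposed cultures. The 17 members that fell were 8 semaphorins (Sema3a, Sema3d, Sema3e, Sema4b, Sema4c, Sema4d, Sema5a and Sema7a), Plxna1, Plxna2, Plxnb2 and Plxnd1, Epha2, Epha4 and Ephb4, and Efna5 and Efnb1. The 5 that rose were Ephb3, Sema6b, Sema6d, Efna1 and Efna4. The 22 changed members are 46.8% of 47, beside 45.4% of all genes (22.2% higher and 23.2% lower). The median log2 fold change was -0.35 for members and 0.03 for all genes. It was -0.13 without Rg1 plus LPS replicates 1 and 4, -0.20 without LPS replicate 3, and -0.12 with the trend on gene length removed. Members are long, at a median of 5.68 kb beside 3.66 kb, and across genes the log2 fold change fell with length in this comparison (Spearman rho -0.33, genes not being independent replicates).

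Rg1 plus LPS was also set against untreated control. The semaphorins lower in it were 7 (Sema3a, Sema3d, Sema3e, Sema4b, Sema4c, Sema5a and Sema7a), together with Plxna4, Plxnb2 and Plxnc1, Epha2, Epha4 and Epha5, and Ephb3. Efna2, Efna4, Sema6b and Sema6c were higher. These 18 members, 4 up and 14 down, are 38.3%, beside 36.9% of all genes (18.8% higher and 18.1% lower), with medians of -0.23 and 0.01. The member median was -0.04 without Rg1 plus LPS replicates 1 and 4. There 16 members changed, 5 up and 11 down, beside 5659 of 15733 genes (49.9% of the 5659 higher). With the length trend removed the member median was -0.10, with 6 up and 10 down, beside 4792 of 15362 genes changed (50% of the 4792 higher). All 3 comparisons share libraries in pairs, so their values are given side by side below and their overlap is not counted as a result.

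**Figure D2:**
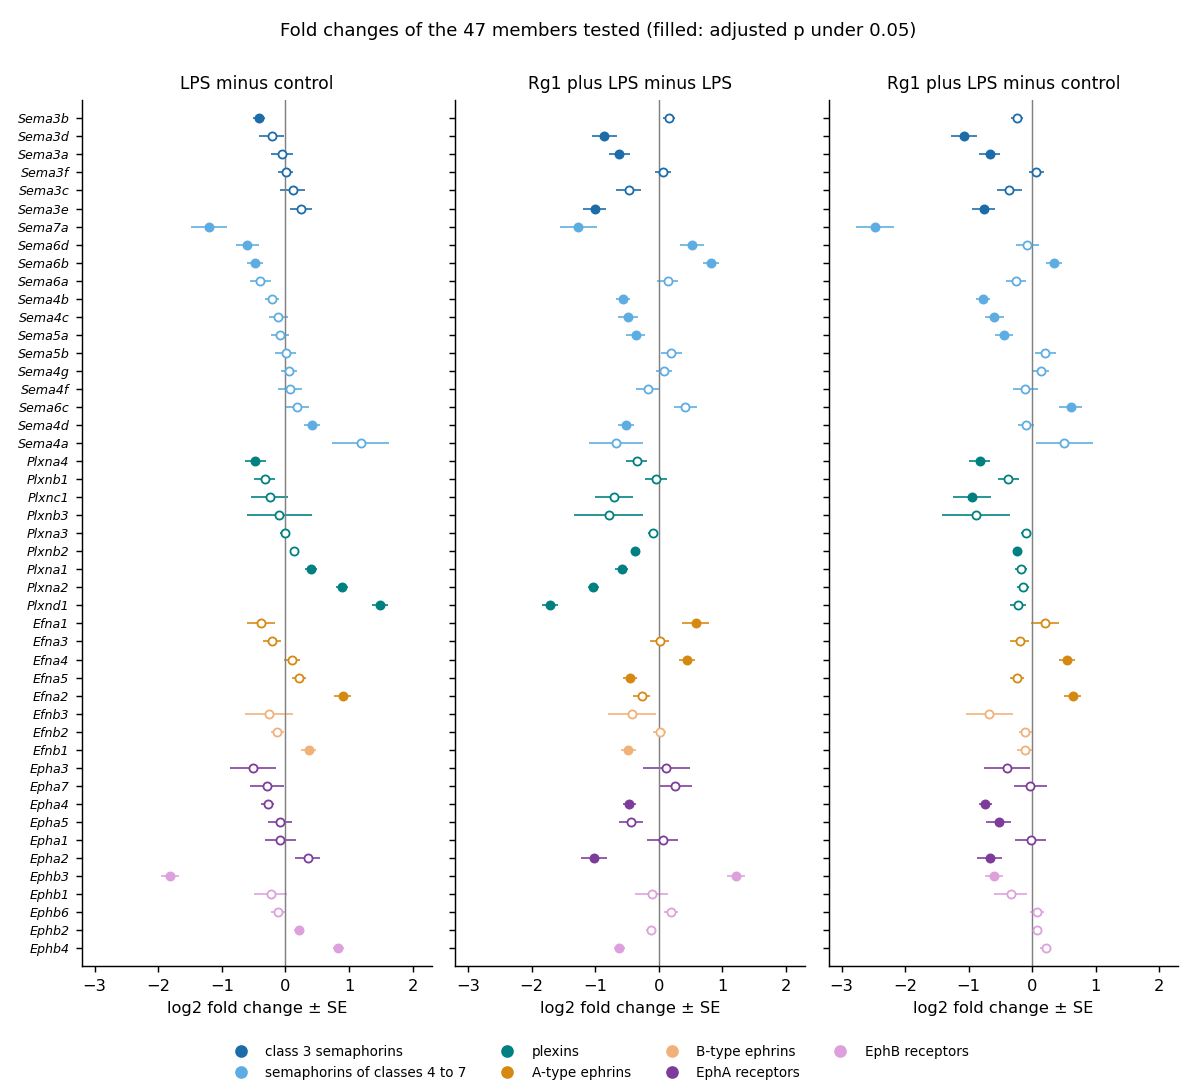
Log2 fold change ± SE of the 47 members tested, in the 3 comparisons from left to right, coloured by family and ordered by the LPS effect within each. Filled points have an adjusted p under 0.05. Plxnd1 and Ephb3 lie farthest out on opposite sides of 0 in the first and second panels, and Sema7a lies left of 0 in all 3.

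Among the receptors, 4 of 9 plexins changed with LPS, 3 up and 1 down (beside 23.7% of all genes), and 4 changed in Rg1 plus LPS against LPS, all down (beside 45.4%). Plxnd1 measured 30.6, 24.6, 26.2, 19.5 and 24.6 CPM in control replicates 1 to 5, 65.2, 72.2, 79.9, 65.1 and 68.7 CPM in the LPS replicates and 26.2, 21.2, 16.0, 23.6 and 20.5 CPM in the Rg1 plus LPS replicates. All LPS libraries lay above every other library, and the control and Rg1 plus LPS values overlapped. Plxnd1 (chr6:115954811-115995339), the receptor that binds Sema3e without a neuropilin, differed by 1.48 ± 0.12 on the log2 scale in LPS against control (adjusted p = 1.49e-07). The difference was -1.71 ± 0.13 in Rg1 plus LPS against LPS (adjusted p = 1.79e-08) and -0.22 ± 0.12 against control (adjusted p = 0.167). Per length, Plxnd1 stood at 0.0358 to 0.0507 of Plxnb2 in control libraries, 0.0990 to 0.131 in LPS and 0.0364 to 0.0560 in Rg1 plus LPS.

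Plxna2 and Plxna1 are receptors for class 6 semaphorins and, with neuropilins, for class 3. Plxna2 measured 119, 105, 101, 90.3 and 116 CPM in control replicates 1 to 5, 191, 206, 203, 187 and 196 CPM in the LPS replicates and 82.2, 114, 96.9, 84.0 and 105 CPM in the Rg1 plus LPS replicates. The LPS libraries again stood apart from both other groups, which overlapped. Plxna2 (chr1:194619791-194816869) differed by 0.89 ± 0.09 in log2 for LPS against control (adjusted p = 1.73e-06) and -1.03 ± 0.09 for Rg1 plus LPS against LPS (adjusted p = 1.62e-07). Plxna1 measured 146, 143, 135, 121 and 138 CPM in control replicates 1 to 5, 185, 176, 164, 176 and 204 CPM in the LPS replicates and 105, 135, 115, 99.9 and 149 CPM in the Rg1 plus LPS replicates. The lowest LPS library of Plxna1 exceeded the highest of either other group, by a smaller margin than for Plxna2. Its log2 differences were 0.41 ± 0.10 (adjusted p = 0.00635) and -0.59 ± 0.10 (adjusted p = 0.000152). Against control, Rg1 plus LPS gave -0.14 ± 0.09 for Plxna2 and -0.18 ± 0.10 for Plxna1, neither past the threshold. With the length trend removed, Plxna1 against LPS was -0.35 ± 0.10 (adjusted p = 0.0107).

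Plxnb2 is the plexin with the highest level per length in all 3 groups, and Plxna4 is scarce. Plxnb2 measured 617, 615, 577, 556 and 592 CPM in control replicates 1 to 5, 659.7, 644, 624, 614 and 710.2 CPM in the LPS replicates and 478, 526, 450.0, 476 and 574 CPM in the Rg1 plus LPS replicates. The Rg1 plus LPS libraries were all below the LPS libraries, and control overlapped both. Plxnb2 differed by -0.38 ± 0.07 in log2 against LPS (adjusted p = 0.000292) and -0.24 ± 0.07 against control (adjusted p = 0.0115), the second of which was lost without Rg1 plus LPS replicates 1 and 4 (adjusted p = 0.0556). With the length trend removed these were -0.18 ± 0.07 (adjusted p = 0.0408) and -0.10 ± 0.07 (adjusted p = 0.301). Plxna4 measured 6.15, 8.43, 7.40, 6.41 and 6.30 CPM in control replicates 1 to 5, 4.54, 5.07, 5.71, 4.46 and 5.16 CPM in the LPS replicates and 3.77, 4.66, 5.31, 3.11 and 2.74 CPM in the Rg1 plus LPS replicates. Plxna4, a neuropilin partner in class 3 signalling, was lower than control in every library of both treated groups, with log2 differences of -0.48 ± 0.16 in LPS (adjusted p = 0.0452) and -0.82 ± 0.17 in Rg1 plus LPS (adjusted p = 0.00107). Plxnc1, the receptor of Sema7a, averaged 2.91 ± 0.808, 2.46 ± 0.985 and 1.51 ± 0.528 CPM in the same order of groups and was called lower than control in the last (log2 -0.95 ± 0.30, adjusted p = 0.0202). Its highest libraries, control replicate 4 and LPS replicate 3, were also the highest of their groups in microglia and macrophage, astrocyte and oligodendrocyte lineage markers. The part of these cell types in this result was not tested. The call was lost in 4 of 27 alternatives, among them the fit without control replicate 4 (adjusted p = 0.0575). Plxna3 and Plxnb1 passed in no comparison, with Plxna3 at 29.6, 29.5 and 27.6 CPM and Plxnb1 at 185, 147 and 143 CPM. Plxnb3 was near the floor, at 0.293, 0.279 and 0.156 CPM.

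**Figure D3:**
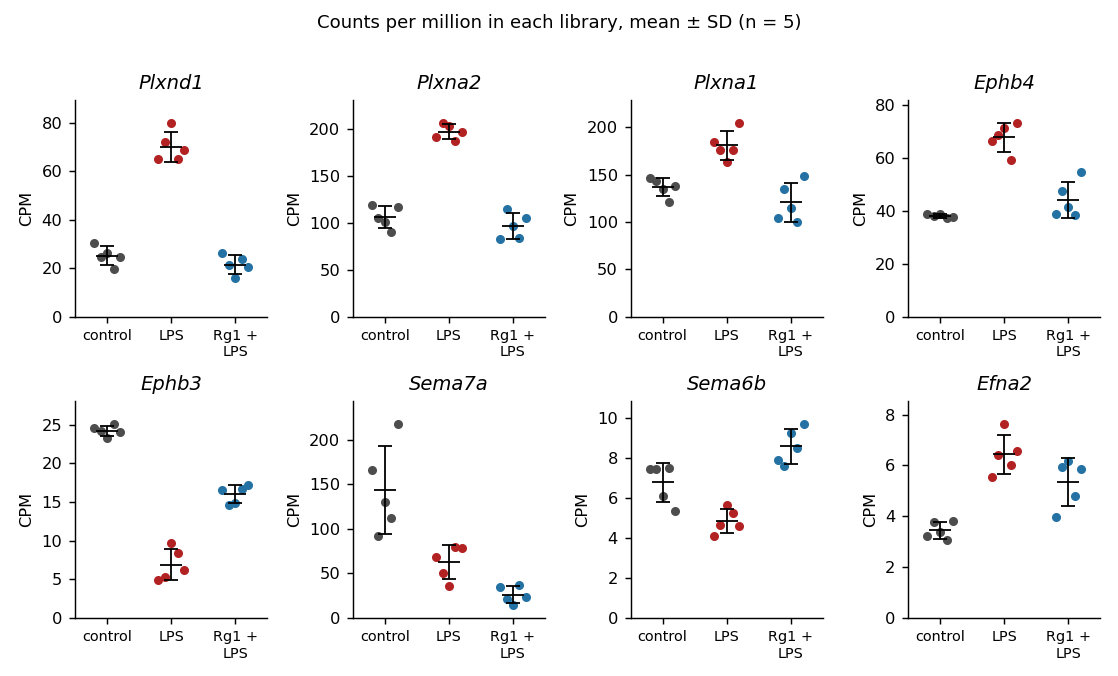
CPM in each library for 8 members, with the axis of each panel starting at 0; points are libraries in replicate order and bars are mean ± SD (n = 5). The LPS libraries of Plxnd1, Plxna2, Plxna1 and Ephb4 lie above both other groups, those of Ephb3 lie below both, and Sema7a is highest in control and lowest in Rg1 plus LPS.

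Among the secreted class 3 semaphorins, 1 of 6 tested (Sema3b) passed in LPS against control, beside 23.7% of all genes. Sema3a, Sema3d and Sema3e, 3 of the 6, fell in Rg1 plus LPS against LPS, where 23.2% of all genes were lower. Sema3e measured 39.8, 36.7, 31.8, 31.7 and 37.9 CPM in control replicates 1 to 5, 56.3, 30.7, 25.4, 46.6 and 51.8 CPM in the LPS replicates and 22.5, 24.6, 17.5, 19.6 and 20.7 CPM in the Rg1 plus LPS replicates. The Rg1 plus LPS libraries of Sema3e were below all others. LPS replicates 2 and 3 lay below control while replicates 1, 4 and 5 lay above it. The log2 difference was -1.01 ± 0.18 against LPS (adjusted p = 0.000315) and -0.76 ± 0.18 against control (adjusted p = 0.00386), and 0.25 ± 0.18 for LPS against control (adjusted p = 0.344).

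Sema3d and Sema3a, both secreted guidance ligands, spread more widely within the Rg1 plus LPS group. Sema3d measured 95.6, 101, 95.3, 87.6 and 88.2 CPM in control replicates 1 to 5, 99.4, 90.1, 68.2, 69.2 and 75.5 CPM in the LPS replicates and 26.3, 69.0, 44.2, 31.6 and 51.0 CPM in the Rg1 plus LPS replicates. Sema3a measured 70.5, 75.0, 68.6, 58.5 and 68.0 CPM in control replicates 1 to 5, 74.7, 69.7, 57.2, 61.0 and 65.8 CPM in the LPS replicates and 26.1, 60.1, 46.1, 32.6 and 48.9 CPM in the Rg1 plus LPS replicates. Rg1 plus LPS replicates 1 and 4 were the lowest 2 libraries of both genes. They were also the lowest 2 of their group in fibroblast and mural markers and in every other marker list except the endothelial one. Sema3d differed by -0.86 ± 0.20 in log2 against LPS (adjusted p = 0.00262) and -1.07 ± 0.20 against control (adjusted p = 0.000723), and Sema3a by -0.62 ± 0.17 (adjusted p = 0.00726) and -0.67 ± 0.17 (adjusted p = 0.00573). Without those 2 libraries the differences from LPS were -0.55 ± 0.14 for Sema3d (adjusted p = 0.00619) and -0.34 ± 0.10 for Sema3a (adjusted p = 0.0136). With the length trend removed, Sema3a against LPS no longer passed (-0.36 ± 0.17, adjusted p = 0.0945).

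Sema3c and Sema3b are the most abundant of the class per length. Sema3c measured 478, 398, 392, 259.5 and 450.4 CPM in control replicates 1 to 5, 558, 466, 285, 392 and 440.5 CPM in the LPS replicates and 235, 414, 252, 300.1 and 339 CPM in the Rg1 plus LPS replicates. All 3 groups of Sema3c overlapped, and no comparison passed in edgeR as fitted here (log2 0.11 ± 0.19, -0.48 ± 0.19 and -0.36 ± 0.19 in the order LPS against control, Rg1 plus LPS against LPS and Rg1 plus LPS against control). The second of these (adjusted p = 0.0563) passed in 7 of 27 alternatives, among them DESeq2 (adjusted p = 0.0244) and the fit without LPS replicate 3 (adjusted p = 0.0126). Sema3b measured 74.4, 80.0, 82.9, 67.4 and 79.0 CPM in control replicates 1 to 5, 48.4, 57.0, 73.0, 52.8 and 57.5 CPM in the LPS replicates and 59.2, 67.0, 64.9, 60.9 and 72.1 CPM in the Rg1 plus LPS replicates. Apart from LPS replicate 3, the LPS libraries of Sema3b were below every control library. The difference was -0.41 ± 0.09 for LPS against control (adjusted p = 0.00459), and 0.17 ± 0.09 for Rg1 plus LPS against LPS did not pass, though it did in 4 of 27 alternatives. Rg1 plus LPS against control gave -0.24 ± 0.09 for Sema3b (adjusted p = 0.0527), which passed in 13 of 27 alternatives. Sema3f averaged 31.3, 31.3 and 32.8 CPM and passed nowhere. On chromosome 5, Sema3d, Sema3a and Sema3e follow each other at gaps of 535.9 and 421.8 kb, with Sema3c 3318.1 kb further, whereas Sema3b and Sema3f lie 72.3 kb apart on chromosome 9.

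**Figure D4:**
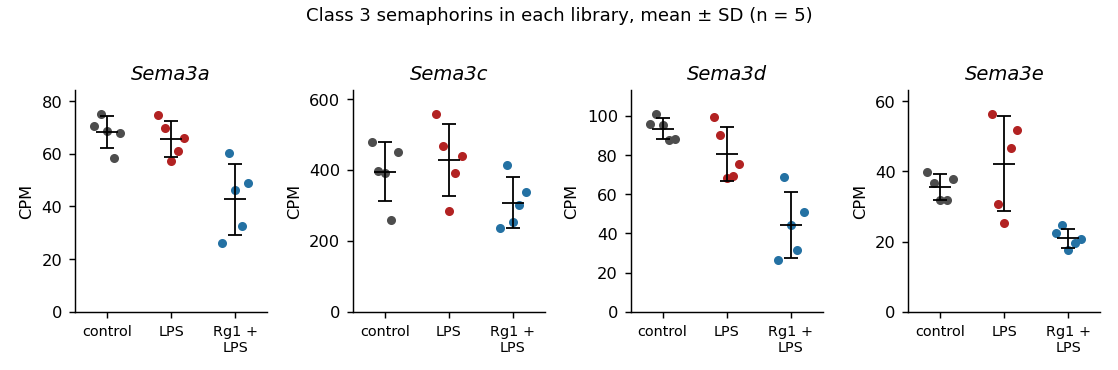
CPM in each library of 4 class 3 semaphorins, axes starting at 0, points in replicate order, bars mean ± SD (n = 5). In the Rg1 plus LPS group, replicates 1 and 4 are the lowest points of Sema3a and Sema3d, while Sema3e lies between 17.5 and 24.6 CPM in all 5.

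Of the 13 membrane-bound semaphorins, Sema7a was lower with LPS and lower again with Rg1 before LPS. Sema7a measured 167, 91.8, 129.9, 112 and 217 CPM in control replicates 1 to 5, 68.1, 50.6, 35.5, 79.9 and 78.5 CPM in the LPS replicates and 34.0, 21.1, 14.4, 36.7 and 23.6 CPM in the Rg1 plus LPS replicates. Control libraries were all above LPS libraries and those above Rg1 plus LPS, except that LPS replicate 3 lay below Rg1 plus LPS replicate 4. Sema7a (chr9:57939596-57962865), known for promoting axon growth and for acting on immune cells through integrins, differed by -1.20 ± 0.29 in log2 for LPS against control (adjusted p = 0.00645). It differed by -1.27 ± 0.29 for Rg1 plus LPS against LPS (adjusted p = 0.00223) and -2.47 ± 0.30 against control (adjusted p = 1.84e-05). Its share of the summed FPKM of membrane-bound semaphorins was 61.3% for control, 43.4% for LPS and 26.3% for Rg1 plus LPS.

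Sema6b and Sema6d, transmembrane ligands of A-type plexins, were lower with LPS and higher again in Rg1 plus LPS. Sema6b measured 7.46, 7.45, 6.09, 7.49 and 5.35 CPM in control replicates 1 to 5, 4.11, 4.66, 5.65, 5.25 and 4.58 CPM in the LPS replicates and 7.87, 7.62, 9.27, 8.51 and 9.67 CPM in the Rg1 plus LPS replicates. The Rg1 plus LPS libraries of Sema6b were above all LPS and all control libraries, and LPS and control overlapped only at control replicate 5. The log2 differences were -0.48 ± 0.12 (adjusted p = 0.00965), 0.82 ± 0.12 (adjusted p = 5.19e-05) and, against control, 0.34 ± 0.12 (adjusted p = 0.0359). The last was lost under several alternatives, with an adjusted p of up to 0.0997. Sema6d, of the same class, averaged 41.9 ± 5.75, 27.7 ± 5.08 and 39.6 ± 13.1 CPM, with differences of -0.60 ± 0.19 (adjusted p = 0.03) and 0.52 ± 0.19 (adjusted p = 0.0331) in the first 2 comparisons and overlapping groups. Each of these 2 calls was lost in 8 of 27 alternatives, with an adjusted p of up to 0.0781 and 0.094. Sema6c was called only against control (3.39 to 5.16 CPM, log2 0.60 ± 0.18), and Sema6a nowhere.

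Of class 4, Sema4b, Sema4c and Sema4d fell in Rg1 plus LPS against LPS, where 23.2% of all genes were lower. Sema4b measured 48.4, 34.9, 40.7, 48.2 and 57.4 CPM in control replicates 1 to 5, 40.9, 40.3, 37.5, 37.3 and 43.0 CPM in the LPS replicates and 25.5, 24.6, 24.9, 28.4 and 30.9 CPM in the Rg1 plus LPS replicates. Every Rg1 plus LPS library of Sema4b was below every other library, and LPS lay within the control range. Its differences were -0.57 ± 0.11 against LPS (adjusted p = 0.000472) and -0.77 ± 0.11 against control (adjusted p = 5.09e-05). Sema4c measured 12.6, 11.1, 11.5, 8.22 and 9.64 CPM in control replicates 1 to 5, 7.93, 10.0, 11.7, 7.70 and 11.9 CPM in the LPS replicates and 6.83, 7.42, 6.60, 5.64 and 8.70 CPM in the Rg1 plus LPS replicates. The groups of Sema4c, a ligand of Plxnb2, overlapped, with -0.48 ± 0.15 against LPS (adjusted p = 0.0167), which did not pass without Rg1 plus LPS replicate 4 (adjusted p = 0.0532) or with the length trend removed (adjusted p = 0.183).

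Sema4d, the ligand of Plxnb1, is also known on immune cells. Sema4d measured 6.66, 7.45, 8.36, 10.9 and 7.93 CPM in control replicates 1 to 5, 9.44, 11.9, 13.0, 10.1 and 10.6 CPM in the LPS replicates and 7.12, 7.07, 8.53, 8.35 and 7.41 CPM in the Rg1 plus LPS replicates. Control replicate 4 and LPS replicate 3 were the highest of their groups. They were also the highest of their groups in microglia and macrophage, astrocyte and oligodendrocyte lineage markers. Sema4d differed by 0.42 ± 0.13 for LPS against control (adjusted p = 0.0257) and -0.52 ± 0.13 for Rg1 plus LPS against LPS (adjusted p = 0.00338). Without these 2 libraries the first was 0.46 ± 0.11 (adjusted p = 0.00937) and the second -0.44 ± 0.11 (adjusted p = 0.00373). With the length trend removed both calls were lost, at 0.37 ± 0.14 (adjusted p = 0.0625) and -0.34 ± 0.14 (adjusted p = 0.0624). Of 14 microglia and macrophage markers tested, 0 passed in LPS against control in edgeR (1 at an unadjusted p under 0.05, 1 by DESeq2 and 1 by limma voom), beside 23.7% of all genes. In Rg1 plus LPS against LPS 8 of the 14 fell, beside 23.2% of all genes lower. Sema5a fell in Rg1 plus LPS against LPS (-0.37 ± 0.14) and against control (-0.45 ± 0.14), at 13.6, 12.9 and 9.97 CPM, and the 2 calls were lost in 16 and 5 of 27 alternatives. Sema4a, Sema4f, Sema4g and Sema5b passed in no comparison, at control means of 0.267, 2.88, 9.96 and 4.62 CPM.

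Ephb3 and Ephb4, receptor tyrosine kinases for B-type ephrins, changed in opposite directions to each other, both in LPS against control and in Rg1 plus LPS against LPS. Ephb3 measured 24.5, 24.1, 23.3, 25.0 and 24.0 CPM in control replicates 1 to 5, 4.92, 5.34, 9.71, 8.32 and 6.18 CPM in the LPS replicates and 16.6, 14.5, 14.9, 16.7 and 17.2 CPM in the Rg1 plus LPS replicates. No library of one group overlapped another: control was highest, Rg1 plus LPS between, and LPS lowest. Ephb3 (chr16:21204620-21223309) differed by -1.81 ± 0.15 in log2 for LPS against control (adjusted p = 9.39e-08), 1.21 ± 0.15 for Rg1 plus LPS against LPS (adjusted p = 5e-06) and -0.60 ± 0.14 against control (adjusted p = 0.0033). Ephb4 measured 38.7, 38.2, 39.0, 37.2 and 37.8 CPM in control replicates 1 to 5, 66.6, 68.7, 71.4, 59.4 and 73.3 CPM in the LPS replicates and 38.9, 47.4, 41.4, 38.4 and 54.9 CPM in the Rg1 plus LPS replicates. The LPS libraries of Ephb4 were above all others, and Rg1 plus LPS overlapped control. Ephb4 (chr5:137350109-137374522), a receptor of Efnb2, differed by 0.83 ± 0.09 (adjusted p = 2.66e-06), -0.62 ± 0.09 (adjusted p = 3.09e-05) and 0.21 ± 0.09 (adjusted p = 0.0717) in the same order. The last passed in 7 of 27 alternatives, among them the fit without Rg1 plus LPS replicates 1 and 4 (0.33 ± 0.08, adjusted p = 0.00537). Per length, the ratio of Ephb4 to Ephb3 ran from 1.42 to 1.60 in control libraries, from 6.81 to 12.9 in LPS and from 2.20 to 3.11 in Rg1 plus LPS.

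Plxnd1 and Ephb4 are also known as vascular genes. The 9 endothelial markers summed to 144 to 188 CPM in control, 174 to 231 with LPS and 121 to 152 with Rg1 and LPS, nearly all of it from Cdh5 and Esam, and their part in the 2 results was not tested. In the order control, LPS and Rg1 plus LPS, Cdh5 averaged 120.5, 140.9 and 86.8 CPM and Esam 33.5, 46.3 and 41.1. Tek averaged 12.3, 10.8 and 7.89 CPM, Kdr 1.56, 1.97 and 1.35, and Vwf 0.221, 0.429 and 0.0699. Over all 5 libraries, Pecam1, Emcn, Cldn5 and Tie1 had 12, 11, 0 and 0 counts in control and 15, 4, 3 and 2 in LPS. In Rg1 plus LPS they had 36, 24, 2 and 0 counts. Of 4 endothelial markers tested, 0 passed in LPS against control in edgeR (1 at an unadjusted p under 0.05, 1 by DESeq2 and 0 by limma voom), beside 23.7% of all genes. In Rg1 plus LPS against LPS 1 of the 4 fell, beside 23.2% of all genes lower.

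Ephb2 showed a small difference. Ephb2 measured 49.1, 50.9, 51.4, 44.1 and 51.8 CPM in control replicates 1 to 5, 54.9, 56.9, 62.9, 52.5 and 58.9 CPM in the LPS replicates and 45.8, 53.9, 49.9, 54.3 and 57.4 CPM in the Rg1 plus LPS replicates. LPS libraries were above all control libraries by a margin of less than 1 CPM at the closest pair (51.8 and 52.5), and Rg1 plus LPS overlapped both. The difference was 0.21 ± 0.07 in log2 (adjusted p = 0.0397), which was lost when any of 12 single libraries was left out and with the length trend removed (adjusted p = 0.142). Ephb1 and Ephb6, the latter lacking kinase activity, passed in no comparison, at 3.63, 3.10 and 2.87 CPM and 23.4, 21.5 and 24.7 CPM.

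Of the 6 EphA receptors tested, 2 (Epha2 and Epha4) fell in Rg1 plus LPS against LPS, where 23.2% of all genes were lower. Epha2 measured 88.1, 56.3, 65.0, 80.7 and 96.9 CPM in control replicates 1 to 5, 106, 85.7, 72.2, 104 and 124 CPM in the LPS replicates and 68.3, 40.3, 31.9, 55.0 and 47.7 CPM in the Rg1 plus LPS replicates. LPS and Rg1 plus LPS libraries of Epha2 did not overlap, and control overlapped both. Its log2 difference was -1.02 ± 0.20 against LPS (adjusted p = 0.0007) and -0.67 ± 0.20 against control (adjusted p = 0.0157), and 0.35 ± 0.20 for LPS against control (adjusted p = 0.221). Epha4 measured 99.4, 98.6, 83.5, 75.7 and 84.8 CPM in control replicates 1 to 5, 86.5, 66.0, 62.5, 67.1 and 82.7 CPM in the LPS replicates and 53.4, 60.4, 51.3, 45.6 and 54.3 CPM in the Rg1 plus LPS replicates. Epha4, which binds ephrins of both types and is known in reactive astrocytes, was lowest in the 5 Rg1 plus LPS libraries, while LPS and control overlapped. It differed by -0.46 ± 0.10 against LPS (adjusted p = 0.00173), -0.74 ± 0.10 against control (adjusted p = 5.07e-05) and -0.28 ± 0.10 for LPS against control (adjusted p = 0.0624). The last passed in 14 of 27 alternatives, among them DESeq2 (adjusted p = 0.0389) and the fit with the length trend removed (adjusted p = 0.0238), which gave -0.29 ± 0.10 against LPS.

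Epha1, the EphA receptor with the highest level per length in control, gave no call. Epha1 measured 82.1, 64.7, 69.5, 52.3 and 66.4 CPM in control replicates 1 to 5, 73.3, 60.3, 43.8, 52.1 and 86.6 CPM in the LPS replicates and 36.4, 85.8, 60.5, 47.4 and 99.8 CPM in the Rg1 plus LPS replicates. The Rg1 plus LPS libraries spanned both other groups, from replicate 1 at the bottom to replicate 5 at the top. Its differences were -0.08 ± 0.24, 0.06 ± 0.24 and -0.02 ± 0.24, none past the threshold, and their signs changed with single libraries. Epha5 was lower in Rg1 plus LPS than in control (7.43 to 5.15 CPM, log2 -0.53 ± 0.19, adjusted p = 0.0407), a call lost in 13 of 27 alternatives, and Epha3 and Epha7, under 4 CPM in every group, passed nowhere.

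Among the 5 A-type ephrins, the ligands of EphA receptors, only Efna2 passed in LPS against control as fitted here, beside 23.7% of all genes. Efna2 measured 3.20, 3.77, 3.37, 3.07 and 3.81 CPM in control replicates 1 to 5, 5.56, 6.42, 7.62, 6.01 and 6.56 CPM in the LPS replicates and 3.96, 5.93, 6.18, 4.81 and 5.86 CPM in the Rg1 plus LPS replicates. All LPS libraries and all Rg1 plus LPS libraries of Efna2 were above all control libraries. It differed by 0.90 ± 0.14 in log2 for LPS against control (adjusted p = 0.000118) and 0.64 ± 0.14 for Rg1 plus LPS against control (adjusted p = 0.00173), while -0.27 ± 0.13 against LPS did not pass (adjusted p = 0.115). The last passed in 2 of 27 alternatives, among them the fit with the length trend removed (-0.39 ± 0.13, adjusted p = 0.027). Efna4 measured 21.3, 17.0, 19.5, 16.8 and 22.8 CPM in control replicates 1 to 5, 24.4, 23.6, 18.3, 17.5 and 21.1 CPM in the LPS replicates and 22.3, 29.7, 27.5, 27.3 and 35.8 CPM in the Rg1 plus LPS replicates. Rg1 plus LPS was higher than the other groups on average, with replicate 1 inside their ranges. Efna4 differed by 0.44 ± 0.13 against LPS (adjusted p = 0.00947) and 0.55 ± 0.13 against control (adjusted p = 0.00306), the first of which was lost with the length trend removed (adjusted p = 0.095).

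Efna5 and Efna1 completed the changed A-type ephrins. Efna5 measured 43.1, 46.1, 43.8, 42.6 and 39.5 CPM in control replicates 1 to 5, 56.7, 51.6, 41.8, 48.4 and 51.2 CPM in the LPS replicates and 26.8, 43.1, 37.5, 32.6 and 42.3 CPM in the Rg1 plus LPS replicates. LPS replicate 3 was the only LPS library inside the Rg1 plus LPS range. The difference was -0.45 ± 0.11 against LPS (adjusted p = 0.00334), and -0.28 ± 0.09 without Rg1 plus LPS replicates 1 and 4. Efna1 measured 3.92, 4.77, 3.79, 2.34 and 3.61 CPM in control replicates 1 to 5, 1.80, 2.68, 4.42, 2.43 and 2.88 CPM in the LPS replicates and 4.39, 3.52, 4.28, 5.16 and 3.86 CPM in the Rg1 plus LPS replicates. Efna1 groups overlapped, and its difference of 0.58 ± 0.22 against LPS (adjusted p = 0.0391) was lost in 11 of 27 alternatives. In LPS against control, Efna1 passed as lower in 2 of 27 alternatives, among them the fit without LPS replicate 3 (-0.60 ± 0.20, adjusted p = 0.0329). Efna5 passed as higher there in 1 of 27. Efna1, Efna3 and Efna4 lie together on chromosome 3, at gaps of 32.9 and 10.5 kb. Efna3, between the other two, differed by 0.01 ± 0.14 against LPS and passed nowhere.

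Of the 3 B-type ephrins, Efnb1 passed in LPS against control and in Rg1 plus LPS against LPS, where 23.7% and 45.4% of all genes did. Efnb1 measured 45.5, 44.8, 48.2, 45.3 and 46.9 CPM in control replicates 1 to 5, 54.1, 62.5, 71.5, 48.0 and 62.1 CPM in the LPS replicates and 33.8, 43.8, 43.4, 36.7 and 55.4 CPM in the Rg1 plus LPS replicates. Control libraries were close together, 4 of the 5 LPS libraries were above all of them, and Rg1 plus LPS straddled control. Efnb1 differed by 0.37 ± 0.12 for LPS against control (adjusted p = 0.0322) and -0.48 ± 0.12 for Rg1 plus LPS against LPS (adjusted p = 0.00324), and the first was lost in 9 of 27 alternatives. The second was -0.32 ± 0.11 without Rg1 plus LPS replicates 1 and 4. Efnb2, the ligand of Ephb4, averaged 107 ± 5.15, 97.8 ± 11.8 and 98.8 ± 17.2 CPM with log2 differences of -0.13 ± 0.10 and 0.01 ± 0.10. Efnb3 varied widely within groups (20.1 ± 6.62, 16.9 ± 9.31 and 12.6 ± 5.76 CPM), and neither gene passed in any comparison.

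The partner genes of both systems were read from 2 lists of 24, all tested. In LPS against control, 14 of 48 changed, 8 up and 6 down (29.2%, median log2 0.04). In Rg1 plus LPS against LPS 27 changed, 6 up and 21 down (56.2%, median -0.20), and against control 20, 4 up and 16 down (41.7%, median -0.07). The corresponding shares of all genes changed were 23.7%, 45.4% and 36.9%, with medians of -0.003, 0.03 and 0.01. Higher were 13.8%, 22.2% and 18.8% of all genes, and lower 9.82%, 23.2% and 18.1%. The widest difference was that of Rnd1, a small GTPase that binds the inner domain of plexins. Rnd1 measured 73.4, 60.1, 61.8, 66.0 and 80.9 CPM in control replicates 1 to 5, 712, 792, 953, 600.5 and 751 CPM in the LPS replicates and 18.8, 25.0, 21.9, 18.8 and 26.4 CPM in the Rg1 plus LPS replicates. LPS libraries were far above control, and Rg1 plus LPS libraries were below every control library. Rnd1 differed by 3.48 ± 0.14 in log2 for LPS against control (adjusted p = 1.24e-11), -5.10 ± 0.15 for Rg1 plus LPS against LPS (adjusted p = 1.87e-13) and -1.63 ± 0.13 against control (adjusted p = 1.69e-07).

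Its relative Rnd3 rose with LPS and fell in Rg1 plus LPS against LPS. Rnd3 measured 125, 138, 128, 145 and 122 CPM in control replicates 1 to 5, 278, 298, 316, 221 and 302 CPM in the LPS replicates and 80.9, 177, 159, 92.3 and 178 CPM in the Rg1 plus LPS replicates. Rg1 plus LPS replicates 1 and 4 of Rnd3 were below control and the other 3 above it. Log2 differences were 1.11 ± 0.19 and -1.04 ± 0.19. Vav2, an exchange factor that acts behind Eph receptors, averaged 29.5 ± 2.53, 46.2 ± 4.02 and 29.0 ± 1.93 CPM, with 0.65 ± 0.08 and -0.67 ± 0.08. Inppl1, a phosphatase that binds Epha2, rose with LPS (0.36) and stayed above control in Rg1 plus LPS (0.25).

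Met, a receptor tyrosine kinase that pairs with B-type plexins, fell from 86.8 ± 3.07 CPM in control to 41.9 ± 6.04 in LPS and was 41.9 ± 4.15 in Rg1 plus LPS (log2 -1.05 ± 0.09 and -1.05 ± 0.09 against control). Ngef, the exchange factor ephexin of EphA signalling, fell with LPS (log2 -1.09). Dpysl2 and Dpysl5, collapsin response mediators in class 3 semaphorin signalling, fell with LPS (-0.42 and -0.46) and rose in Rg1 plus LPS against LPS (0.56 and 0.53). Rnd2 and Arhgef19 rose in that comparison as well (0.48 and 0.86).

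Mical2, an oxidoreductase acting on actin, and Arhgef12, an exchange factor bound to B-type plexins, did not pass with LPS and fell in Rg1 plus LPS against LPS. The log2 difference was -1.18 ± 0.15 for Mical2 and -0.48 ± 0.07 for Arhgef12. Dpysl3 was lower in Rg1 plus LPS than in control (-0.86), and Cdk5, Arhgef19 and Fes were higher (0.27, 0.56 and 0.52). The co-receptors Nrp1 and Nrp2 are named after their values were seen. Nrp2 measured 186, 245, 204, 192 and 160.4 CPM in control replicates 1 to 5, 201, 303, 347, 196 and 235 CPM in the LPS replicates and 74.2, 139.7, 139, 72.1 and 164 CPM in the Rg1 plus LPS replicates. As for Sema3a and Sema3d, Rg1 plus LPS replicates 1 and 4 were the lowest libraries of Nrp2. Nrp2 differed by -1.12 ± 0.23 against LPS (adjusted p = 0.000983) and Nrp1 by -0.39 ± 0.10 (adjusted p = 0.00485).

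**Figure D5:**
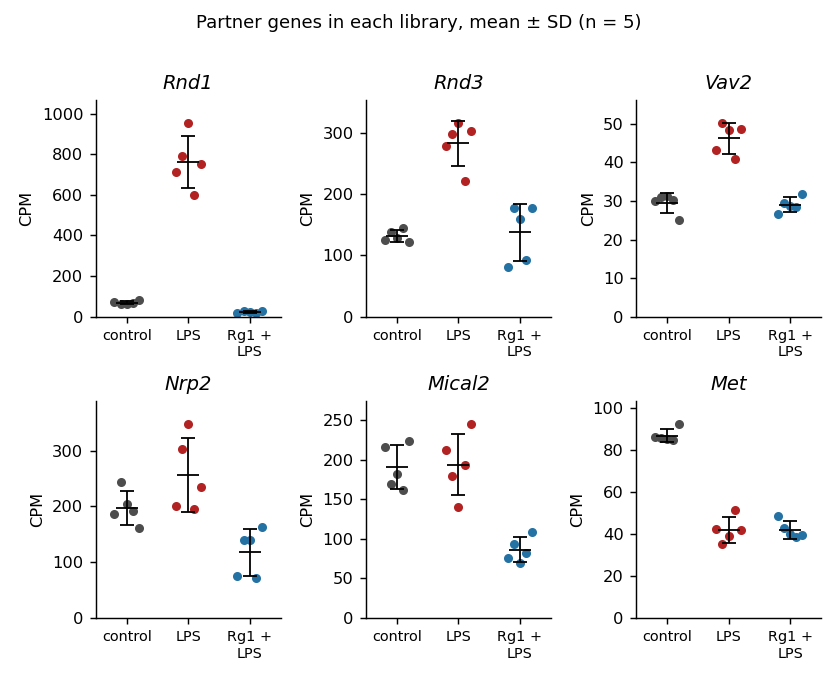
CPM in each library of 6 partner genes, axes starting at 0, points in replicate order, bars mean ± SD (n = 5). Rnd1 is high only in the 5 LPS libraries, Vav2 is higher there than in both other groups, and Met is higher in control than in both treated groups.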

How the data were processed

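PolyA RNA of 15 samples was sequenced after TRIzol extraction and VAHTS Universal V6 library preparation by OE Biotech, per the labels' protocols. The builds GRCm38 and mm10 are named per the submitters' processing notes, while no aligner, counter, annotation or strand setting is given in the sources used here. Each library has, as the authors deposited them, whole-number counts per gene symbol, and FPKM, which equalled count divided by length and total count. In each FPKM file 37 rows had damaged symbols and were left out, none of them a member. In the Rg1 plus LPS group the treatment labels are numbered Rg1 to Rg5, and the titles and design text, which give 5 replicates of Rg1, were followed.

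Counts were analysed with edgeR 4.0.16 in R 4.3.3: filterByExpr by group kept 15362 genes, TMM factors scaled the libraries, and all 15 entered 1 robust quasi-likelihood fit with group as the only term. Two-sided tests were adjusted by Benjamini-Hochberg over all genes tested, with a threshold of 0.05. CPM are per TMM-scaled library, mean ± SD, and log2 fold changes are ± SE. The method was tested on simulated data. Members, gene lists and naming rules were chosen with earlier results of these data known. A member was named with every value if it averaged at least 1 CPM in a group and passed in LPS against control or Rg1 plus LPS against LPS (up to 5 per family), or led its family in control FPKM; of the partner lists, up to 4 higher and 4 lower per comparison were named. Alternatives included DESeq2 1.42.0, limma 3.58.1 (voom), other scalings and filters, each library left out, a replicate block and removal of the trend on gene length. Protein sequences were not analysed here. Promoters and positions are from RefSeq tables of GRCm38.p6, matching 45 and 52 of 52 members.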

Additional observations from a re-analysis of the deposited data

How the results depend on the processing

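The 26 members named with their value in every library gave 78 results, which were recomputed with the list counts under 27 alternatives, of which leaving out Rg1 plus LPS replicates 1 and 4, and LPS replicate 3 with control replicate 4, were chosen after seeing the data. Counts of changed members kept within 1.5 times the main count except in LPS against control, where they ran from 9 (without LPS replicate 2) to 16 over the fits without 1 library. Over those fits the count of all genes changed in LPS against control ran from 2847 to 4440. In the other guidance families, the 3 calls of LPS against control became 6 with only the 2 groups compared, 5 with the replicate number as a block and 6 without Rg1 plus LPS replicates 1 and 4. The cause was not tested. In the same order, the 3635 of 15362 genes changed became 4521 of 14807, 4113 of 15362 and 4554 of 15733. Scaling to library size alone moved the share of higher calls among all changed genes from 58.5 to 45.9% in LPS against control, from 48.9 to 65% in Rg1 plus LPS against LPS, where the median of all genes was 0.14, and from 50.9 to 63.8% in Rg1 plus LPS against control. Signs changed only for values that passed in neither fit. In LPS against control, without 1 library, Epha1 ran from -0.2293 to 0.0119 and Sema3c from -0.0149 to 0.2211. In Rg1 plus LPS against LPS, Epha1 ran from -0.1155 to 0.213 without 1 library and was -0.0384 without LPS replicate 3 and control replicate 4, and Ephb2 was 0.1198 with the length trend removed and 0.1196 with block and length. In Rg1 plus LPS against control, Epha1 ran from -0.2055 to 0.1307 without 1 library, was 0.0406 by library size alone and 0.2932 without Rg1 plus LPS replicates 1 and 4, where Efnb1 was 0.0442. With the length trend removed Plxna2 was 0.0908 (0.0858 with the block), Plxna1 0.0019 and Sema4d 0.031 (0.0399 with the block). Sema4d ran from -0.171 to 0.0247 without 1 library, and was 0.02 without LPS replicate 3 and control replicate 4.

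Groups share replicate numbers, but same-numbered libraries did not deviate together in every pair (correlations of -0.222 to 0.155 between LPS and control, 0.05 to 0.424 between Rg1 plus LPS and LPS, and -0.218 to 0.136 between Rg1 plus LPS and control), so the numbers were not taken to pair the samples. With the replicate block, 18, 26 and 20 members changed in these 3 comparisons, beside 14, 22 and 18 without it. Of all 15362 genes, 4113, 7254 and 6027 changed with the block, beside 3635, 6976 and 5671. Among named members the block added calls of Epha2 (0.35, adjusted p = 0.0212) and Epha4 (adjusted p = 0.0205) in LPS against control, of Plxna4 and Sema3c in Rg1 plus LPS against LPS (adjusted p = 0.0341 and 0.0455), and of Ephb4 and Sema3b in Rg1 plus LPS against control (adjusted p = 0.0494 and 0.0157), where it lost Sema6b (adjusted p = 0.0543). In the second comparison, 3 of 5 libraries correlated best with their own number, which is a hint from the data and not the design.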

Other observations

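Other guidance families, taken from a list of 25 genes of the Slit and Robo, netrin and RGM and FLRT groups, were read in the same fit, and 21 of the 25 were tested. In LPS against control 3 changed (14.3%, beside 23.7% of all genes), and they are named after their values were seen. Flrt2, a membrane protein that binds Unc5 receptors, averaged 91.5 ± 8.84 CPM in control and 240.4 ± 91.0 in LPS (log2 1.39 ± 0.22). The secreted cue Ntn1 rose from 54.5 ± 2.11 to 69.9 ± 5.47 CPM, and Flrt1 fell from 12.1 ± 0.780 to 4.51 ± 0.622 CPM.

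In Rg1 plus LPS against LPS 12 of the 21 fell and 0 rose in edgeR (0 also at an unadjusted p under 0.05, by DESeq2 and by limma voom), beside 23.2% of all genes lower, with a median log2 fold change of -0.45 beside 0.03. Against control 11 changed, 1 up and 10 down (52.4%, beside 36.9% of all genes, 18.8% higher and 18.1% lower). Flrt2 was 76.8 ± 12.2 CPM in Rg1 plus LPS (log2 -1.65 ± 0.22 against LPS), and its LPS libraries ranged from 116 in replicate 3 to 349 in replicate 1. The secreted Slit3 was lowest in Rg1 plus LPS replicates 1 and 4 (15.0 and 15.9 CPM, beside 20.9 to 35.2 in the other 3), as was its receptor Robo1 (18.4 and 19.0 CPM, beside 36.6 to 37.1). These 2 libraries are also the lowest of their group in fibroblast and mural markers and in every other marker list except the endothelial one. The part of these cell types in the differences was not tested. Leaving the 2 libraries out gave 10 changed genes in Rg1 plus LPS against LPS, 1 up and 9 down. In that fit 7473 of 15733 genes changed.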
